A study of Penicillium oxalicum with 9 samples.

Results

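Genes that were higher without either of 2 regulators of raw starch-degrading enzymes were selected from RNA-seq of *Penicillium oxalicum*, a filamentous fungus. They numbered 63 of the 9721 genes listed. The mutant libraries were Δ*rsrA*, in which POX01907 was deleted, and Δ*rsrB*, in which POX08340 was deleted, both in the Δ*ku70* background, and the parental strain Δ*ku70* (labelled PoxKu70_WT, genotype WT) was set against them, with 3 libraries each. All 3 strains therefore lack *ku70*, a gene of non-homologous end joining whose loss makes targeted deletion easier. POX01907 is an earlier identifier of *rsrA* in the paper. That POX08340 is *rsrB* is an inference, since the paper uses another identifier for *rsrB* but shows the transcriptomes of these mutants side by side against Δ*ku70* at this time. Spores were grown for 24 h in glucose medium, and mycelia were sampled 24 h after transfer to the inducing medium, whose carbon source is raw starch in one label, Avicel in another and commercial starch of corn in the paper.

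The members were chosen on log2(FPKM + 1), where FPKM is the number of fragments scaled to transcript length and to all mapped fragments. The mean of each mutant had to exceed that of Δ*ku70* by at least 0.8, all 6 mutant values had to lie above all 3 Δ*ku70* values, and the 3 Δ*ku70* values had to span no more than 1.5. A block of 12 consecutive identifiers was left out beforehand, of which 1 met these conditions. The differences from Δ*ku70* are thus what selected the genes. They are given below as a description, with no p for a member. The number of members called against Δ*ku70* is printed once beside that of all genes, and nothing is read from it.

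Growth on starch makes filamentous fungi switch on genes for secreted amylases and sugar uptake, under transcription factors that activate or repress their targets. RsrA carries SANT-like domains and RsrB a fungal zinc cluster, and the paper describes both as activators of raw starch-degrading enzyme production. It also reports genes that rose in both mutants, and a rise of the conidiation gene *brlA* in Δ*rsrB*. A gene whose transcript is higher when a transcription factor is missing may respond to it directly or through other genes, and transcript levels alone do not separate these. The deposited lists pair no identifier with a gene name, and 0 of the 9721 identifiers were found in the RefSeq table of strain HP7-1, so no function, position or sequence can be given for a member and genes are described by identifier and level.

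The FPKM totals of the 9 libraries lay between 950456 and 1086112, and the read number behind them is unknown. The deleted genes followed the labels. POX01907 had 0.01, 0.01 and 0.04 FPKM in Δ*rsrA*, against 22.9, 17.1 and 16.5 in Δ*ku70*, and POX08340 was listed at 0 in all 3 Δ*rsrB* libraries, against 30.6, 35.7 and 30.6 in Δ*ku70*. POX08340 was also low in Δ*rsrA*, with 8.26, 8.01 and 7.28 FPKM, whereas POX01907 had 24.2, 20.4 and 19.9 in Δ*rsrB*. The paper likewise reports lower *rsrB* transcription in Δ*rsrA*. At the transcript level the 2 mutants are therefore not separate losses of 1 regulator each. Across all listed genes, Pearson's r of log2(FPKM + 1) was 0.986 to 0.994 between Δ*rsrA* replicates and 0.977 to 0.991 between Δ*rsrB* replicates. In Δ*ku70* it was 0.984 for replicates 2 and 3, whereas replicate 1 reached only 0.915 and 0.906 with them. These are correlations across genes, which do not replicate each other, and carry no p. The 3 libraries of a strain are called biological replicates in the paper, but no label says whether they came from separate cultures, and p-values measure only the spread between them.

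Because 1 Δ*ku70* library stood apart, the selection was repeated without it. Without Δ*ku70* replicate 1, 78 genes met the rule, and 38 of the 63 members were among them. All 63 members remained above Δ*ku70* in both mutant means, which the condition on the single values had fixed in advance. Their median rises were then 1.12 in Δ*rsrA* and 0.94 in Δ*rsrB* on the log2 scale. The 25 members that no longer met the rule included 20 whose Δ*rsrB* difference was then under 0.8, down to 0.38. Without Δ*ku70* replicate 3, 187 genes met the rule, 58 of the 63 among them. There were 18 members that met the rule whichever of the 9 libraries was left out. Among the members named below, POX07894, POX05259, POX06323, POX00422 and POX08718 failed the rule without Δ*ku70* replicate 1, all by a Δ*rsrB* difference under 0.8. In POX00422 the Δ*rsrA* difference was then under 0.8 as well.

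**Figure D1:**
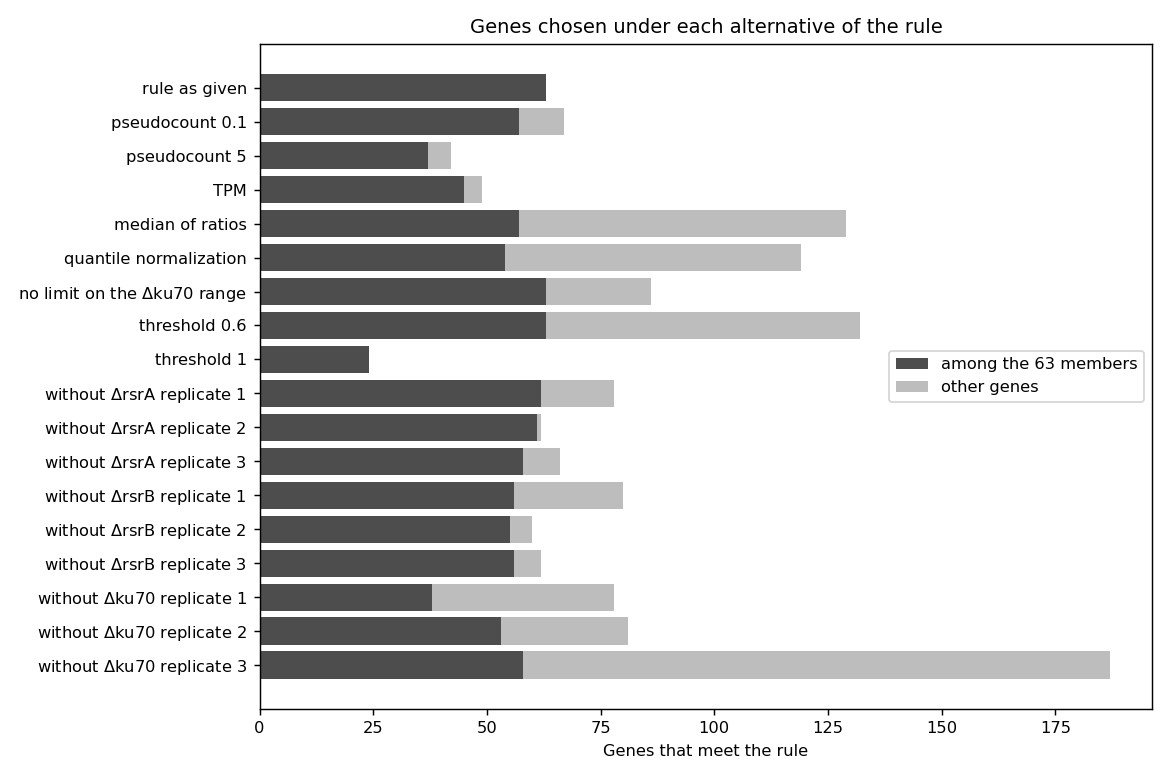
Number of genes that meet the rule (x axis) as given and under each alternative (rows): pseudocounts, scalings, limits of the rule and each library left out. Dark bars count genes among the 63 members and light bars other genes. The bar without Δ*ku70* replicate 3 reaches 187 genes and that with a threshold of 1 stops at 24.

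In Δ*rsrA*, the members exceeded Δ*ku70* by 0.83 to 3.52 on the log2 scale, with a median of 1.15. The median over all listed genes was -0.25. In Δ*rsrB*, the members exceeded Δ*ku70* by 0.81 to 5.02, with a median of 1.02, against 0.02 over all listed genes. In Δ*rsrA*, 43 members reached a difference of at least 1 and 11 of at least 2. For Δ*rsrB* these were 35 and 9 members, and 24 and 2 reached them in both mutants. All 6 mutant values lay above all 3 Δ*ku70* values in 4.25% of all listed genes, a condition that the members met by choice.

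The members spanned a wide range of expression. Their mean FPKM in Δ*ku70* was under 1 in 5 members, 1 to 10 in 24, 10 to 100 in 21, 100 to 1000 in 9 and over 1000 in 4. Together they took 2.68% ± 0.0899 of the FPKM total in Δ*rsrA* and 2.67% ± 0.164 in Δ*rsrB*, against 1.34% ± 0.219 in Δ*ku70* (SD, n = 3 each). A higher share in the mutants was set by the choice of the members and is no result about them. The 5 most abundant members held 69.2% of the members' summed FPKM in the mutants.

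**Figure D2:**
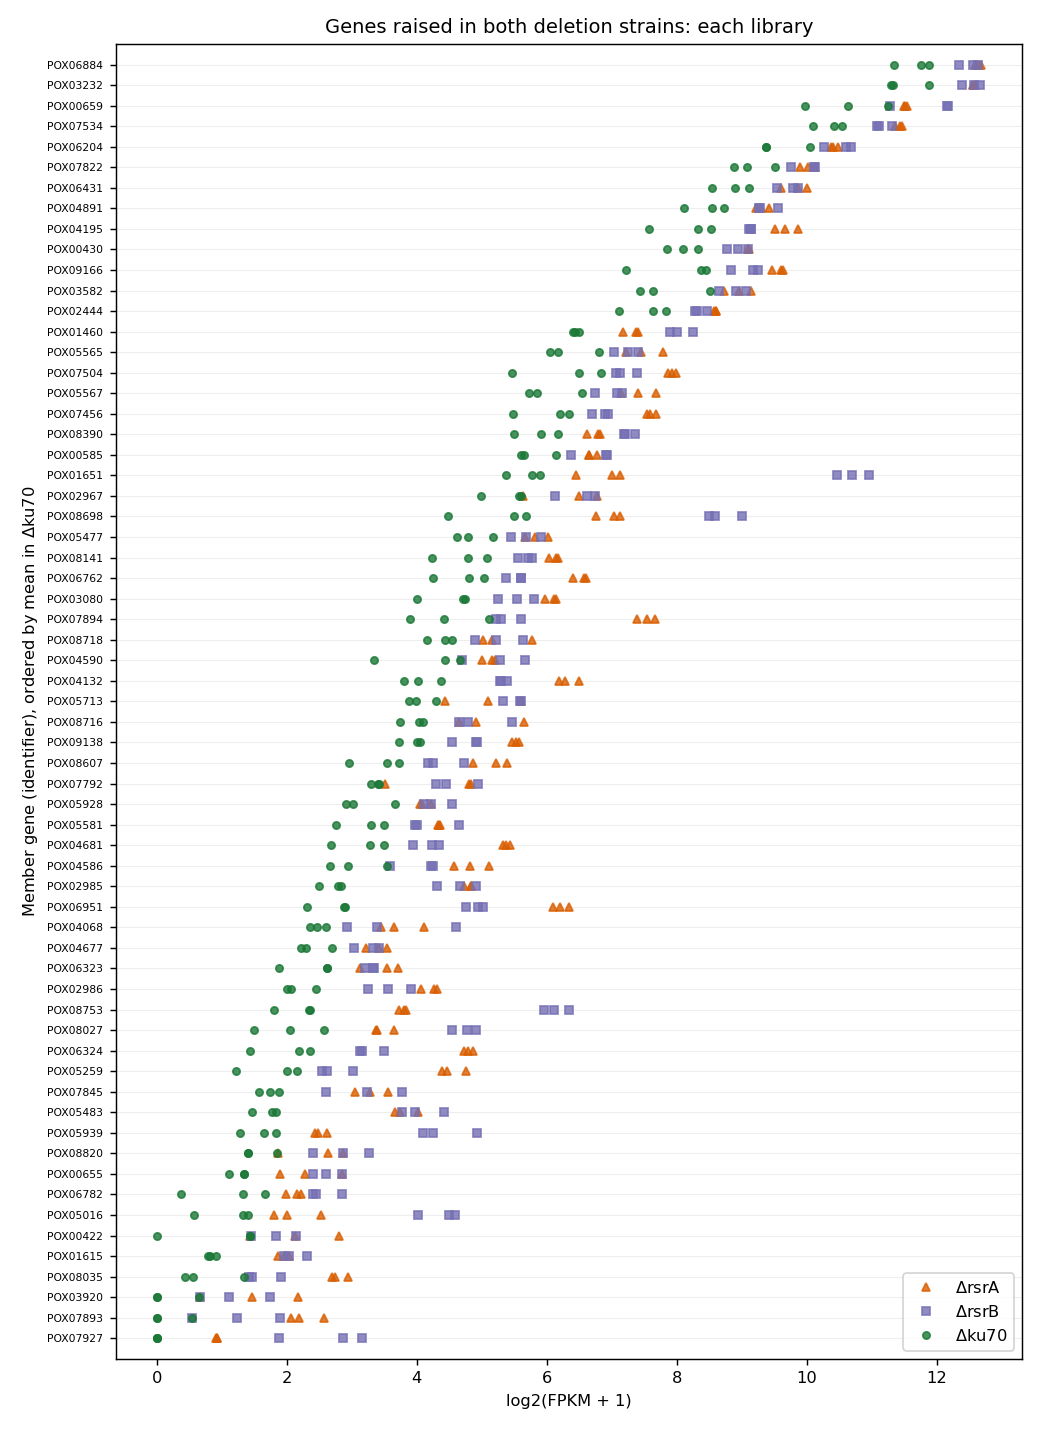
log2(FPKM + 1) of the 63 members (rows, ordered by their mean in Δ*ku70*) in each of the 9 libraries, with triangles for Δ*rsrA*, squares for Δ*rsrB* and circles for Δ*ku70*. Mutant symbols lie to the right of all Δ*ku70* symbols in each row by selection, and the gap between them has a median of 0.44.

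The gap between the lowest mutant value and the highest Δ*ku70* value had a median of 0.44 on the log2 scale and reached 1.87. It was under 0.1 in 10 members and at least 0.5 in 22. The member nearest to overlap was POX00422, with 6.0, 1.71 and 3.37 FPKM in Δ*rsrA* and 3.40, 1.72 and 2.57 in Δ*rsrB*, against 0, 1.70 and 1.69 in Δ*ku70*. Its lowest mutant values and its highest Δ*ku70* value were nearly the same, and without Δ*ku70* replicate 1, listed at 0, its rise was 0.69 in Δ*rsrA* and 0.38 in Δ*rsrB*. The gene nearest outside, POX02491, failed because its lowest Δ*rsrB* value and its highest Δ*ku70* value were both 14.6 FPKM. For the differences, the members nearest to the limit stood at 0.826 in Δ*rsrA* and 0.813 in Δ*rsrB*, and the nearest genes outside at 0.796 and 0.799. In all, 50 genes failed only the limit in Δ*rsrA* and 83 only that in Δ*rsrB*. The limit on the Δ*ku70* range alone left out 23 genes, of which the nearest had a range of 1.511, and the member nearest to it had 1.433.

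The 2 mutants were then compared with each other, which answers whether the members rose equally without RsrA and without RsrB. This contrast contains no Δ*ku70* library and was not part of the rule. The moderated test of limma was applied to log2(FPKM + 1), with Benjamini-Hochberg adjustment of p over the 8491 genes whose FPKM averaged 1 or more across the 6 mutant libraries. All 63 members reached this level. With an adjusted p under 0.05 as the limit, Δ*rsrA* exceeded Δ*rsrB* in 19 members and lay under it in 10, and 34 were not called. At an unadjusted p under 0.05 there were 32. Over all genes tested, 15.2% were higher and 45.1% lower in Δ*rsrA*, against 30.2% and 15.9% of the members. These shares cannot be read as a property of the members, because a minimum rise over Δ*ku70* in both mutants was a condition of the choice.

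The median difference Δ*rsrA* minus Δ*rsrB* was 0.13 over the members and -0.34 over all genes tested. A median-of-ratios scaling of the libraries moved the median of all genes to -0.01 and that of the members to 0.46. With that scaling 2205 of all genes tested were higher and 2020 lower in Δ*rsrA*, against 1294 and 3829 without it. It called 33 members higher and 8 lower, and quantile normalization 25 and 8. All 19 members called higher in Δ*rsrA* were also called under rescaling to equal totals, the median of ratios and quantile normalization, as were 8 of the 10 called lower. There was no overlap between the mutants' values in 22 members with Δ*rsrA* above (34.9%, against 17.0% of all genes tested) and in 10 with Δ*rsrA* below (15.9%, against 49.4%).

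**Figure D3:**
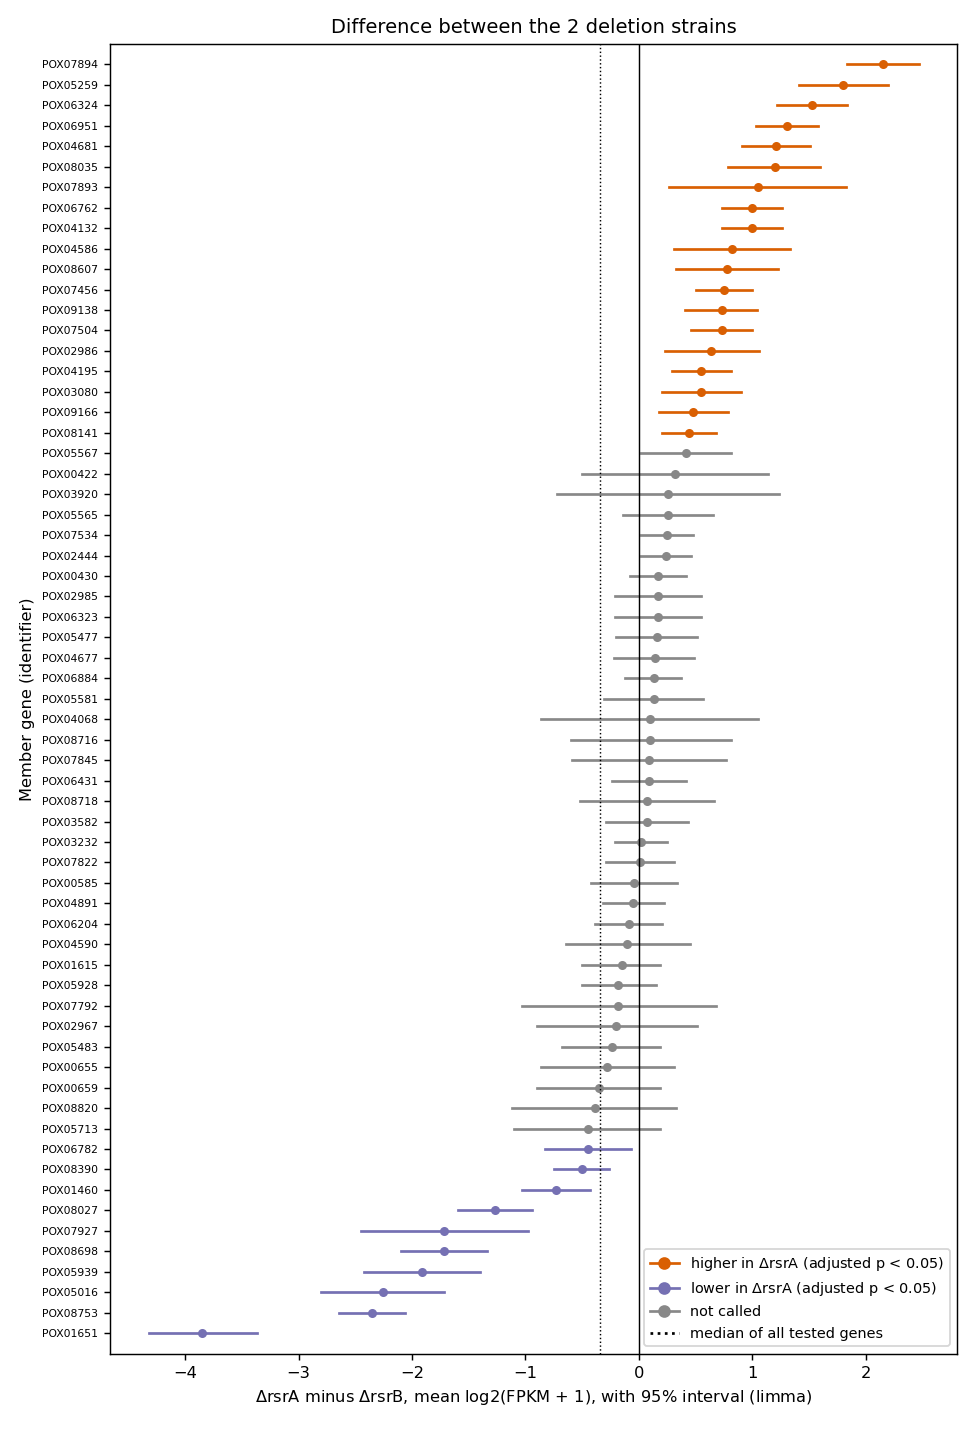
Δ*rsrA* minus Δ*rsrB* in mean log2(FPKM + 1) (x axis, points) with its 95% interval (lines, limma) for the 63 members (rows). The 19 members higher in Δ*rsrA* reach 2.15 and the 10 lower ones -3.85, and the dotted line marks the median of all genes tested, -0.34.

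Among the 10 members with lower values in Δ*rsrA*, the difference from Δ*rsrB* was -3.85 to -0.45 with a median of -1.72. Their rise over Δ*ku70* was 0.87 to 1.75 in Δ*rsrA* and 1.40 to 5.02 in Δ*rsrB*. POX01651 showed the largest mean rise of all members. It had 138, 127 and 86.0 FPKM in Δ*rsrA* and 1972, 1410 and 1658 in Δ*rsrB*, against 58.2, 40.5 and 53.6 in Δ*ku70*. The 3 strains did not overlap, and Δ*rsrB* was far above both others. Relative to Δ*ku70*, mean FPKM was 2.31-fold in Δ*rsrA* and 33.1-fold in Δ*rsrB*. Between the mutants the log2 difference was -3.85 (standard error 0.20, adjusted p = 9.45e-06, limma).

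POX08753 followed the same order at a lower level. Its FPKM was 13.0, 13.3 and 12.2 in Δ*rsrA* and 80.3, 68.2 and 61.2 in Δ*rsrB*, against 2.49, 4.10 and 4.05 in Δ*ku70*. Each strain formed a separate group of values. The log2 difference between the mutants was -2.35 (standard error 0.12, 95% interval -2.64 to -2.06, adjusted p = 9.5e-06, limma). POX07927 was listed at 0 in all 3 Δ*ku70* libraries, the only member for which this was so, and no fold against Δ*ku70* is given. It had 0.89, 0.89 and 0.88 FPKM in Δ*rsrA* and 7.96, 6.26 and 2.67 in Δ*rsrB*. The Δ*rsrB* values were 9.0, 7.1 and 3.0 times the lowest value above 0, while the Δ*rsrA* values were all 1.0 times that value. Its log2 difference between the mutants was -1.72 (standard error 0.31, adjusted p = 0.0026, limma).

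The 19 members that were higher in Δ*rsrA* differed from Δ*rsrB* by 0.44 to 2.15, with a median of 0.82. They exceeded Δ*ku70* by 1.41 to 3.52 in Δ*rsrA* and by 0.82 to 2.21 in Δ*rsrB*. Without Δ*ku70* replicate 1, 9 of these 19 still met the rule. So did 8 of the 10 members lower in Δ*rsrA* and 21 of the 34 not called. POX07894 had the largest difference. Its FPKM was 201, 166 and 186 in Δ*rsrA* and 47.5, 38.3 and 36.3 in Δ*rsrB*, against 13.8, 20.3 and 33.4 in Δ*ku70*. The Δ*rsrA* libraries stood well apart, while the lowest Δ*rsrB* value was close to the highest Δ*ku70* value. The log2 difference between the mutants was 2.15 (standard error 0.13, adjusted p = 1.92e-05, limma). Without Δ*ku70* replicate 1, its rise over Δ*ku70* was 2.77 in Δ*rsrA* and 0.62 in Δ*rsrB*, and it no longer met the rule.

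POX05259 had 19.8, 21.1 and 25.9 FPKM in Δ*rsrA* and 5.16, 4.81 and 7.13 in Δ*rsrB*, against 1.32, 3.47 and 3.00 in Δ*ku70*. The 3 groups of values were in the same order as in POX07894. The log2 difference between the mutants was 1.80 (standard error 0.17, adjusted p = 0.000119, limma), and without Δ*ku70* replicate 1 the Δ*rsrB* rise of 0.65 was under the limit of the rule. POX06951 had the second largest mean rise of all members and the widest gap. It had 80.3, 72.4 and 67.5 FPKM in Δ*rsrA* and 29.8, 26.0 and 31.3 in Δ*rsrB*, against 3.95, 6.40 and 6.39 in Δ*ku70*. Mean FPKM was thus 13.2-fold in Δ*rsrA* and 5.20-fold in Δ*rsrB* relative to Δ*ku70*. The mutants differed by 1.31 (standard error 0.12, adjusted p = 9.69e-05, limma).

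**Figure D4:**
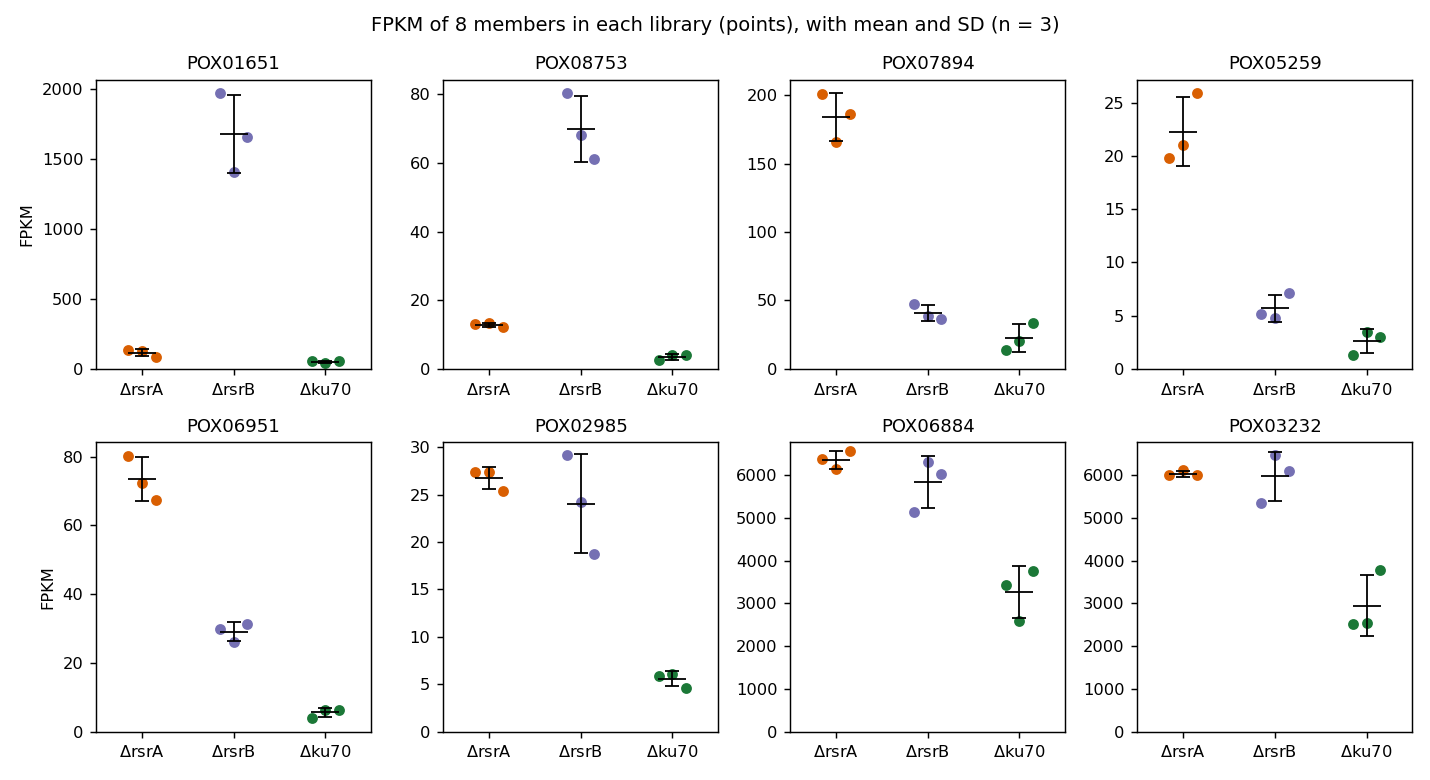
FPKM (y axis, linear) of 8 members in the 3 libraries of Δ*rsrA*, Δ*rsrB* and Δ*ku70* (points), with mean and SD (black, n = 3). POX01651 and POX08753 are highest in Δ*rsrB*, POX07894, POX05259 and POX06951 in Δ*rsrA*, and POX02985, POX06884 and POX03232 have overlapping values in the mutants.

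For single genes, an exact permutation of the 6 mutant libraries (two-sided, on mean log2(FPKM + 1)) gave p = 0.1 for each of POX01651, POX08753, POX07894, POX05259 and POX06951, the smallest p that 3 libraries against 3 allow. A replicate check at the 0.05 level therefore rests on limma, which shares its estimate of the spread over all genes.

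The 34 members that were not called differed between the mutants by -0.45 to 0.42. In 13 of them the whole 95% interval lay within 0.5 of 0 on the log2 scale, and in the others the interval reached past that size. It extended by up to 0.98 to either side of the difference. The 4 most abundant members, with a Δ*ku70* mean over 1000 FPKM, were all in this group. They rose by 0.90 to 1.06 in Δ*rsrA* and by 0.81 to 1.25 in Δ*rsrB*.

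POX06884 and POX03232 had the highest FPKM of all members in the mutants. POX06884 had 6377, 6140 and 6557 FPKM in Δ*rsrA* and 5147, 6320 and 6038 in Δ*rsrB*, against 3440, 2579 and 3757 in Δ*ku70*. POX03232 had 5998, 6120 and 6003 FPKM in Δ*rsrA* and 5346, 6483 and 6100 in Δ*rsrB*, against 2518, 2552 and 3775 in Δ*ku70*. In either gene the mutants overlapped and lay above those of Δ*ku70*. The difference between the mutants was 0.13 (95% interval -0.12 to 0.37, adjusted p = 0.312, limma) for POX06884 and 0.02 (95% interval -0.21 to 0.25, adjusted p = 0.869, limma) for POX03232. After scaling by the median of ratios, the differences were 0.49 in POX06884 and 0.38 in POX03232, with adjusted p of 0.00594 and 0.0126 (limma). With quantile normalization, POX06884 was also called, at 0.34 (adjusted p = 0.0107, limma).

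Rises over Δ*ku70* of around 2 on the log2 scale in both mutants were seen in POX05483 and POX02985. These were picked after their values had been seen. POX05483 had 15.2, 11.7 and 12.4 FPKM in Δ*rsrA* and 20.4, 12.6 and 14.7 in Δ*rsrB*, against 1.77, 2.43 and 2.58 in Δ*ku70*. Its mean was 5.79-fold in Δ*rsrA* and 7.04-fold in Δ*rsrB* relative to Δ*ku70*, and the mutants differed by -0.24 (95% interval -0.68 to 0.19, adjusted p = 0.287, limma). That difference turned positive under 2 scalings, at 0.09 and 0.15. POX02985 had 27.4, 27.4 and 25.4 FPKM in Δ*rsrA* and 29.2, 24.2 and 18.8 in Δ*rsrB*, against 5.90, 6.12 and 4.65 in Δ*ku70*. Its mean was 4.81-fold in Δ*rsrA* and 4.33-fold in Δ*rsrB*, and the mutants differed by 0.17 (95% interval -0.21 to 0.55, adjusted p = 0.392, limma). It was called higher in Δ*rsrA* with the median of ratios, at 0.52 (adjusted p = 0.03, limma), and with quantile normalization, at 0.51 (adjusted p = 0.0413, limma).

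The rule used the same contrasts, so the number of members called against Δ*ku70* by limma was set by the choice and is no test of the members. Of 62 members tested in Δ*rsrA*, 54 were called higher, and of 61 tested in Δ*rsrB*, 18 were. Over all genes tested, 9.74% were called higher in Δ*rsrA* and 1.72% in Δ*rsrB*, and the members' counts cannot be read against these shares. There were 16 members called in both mutants and 7 in neither. Without Δ*ku70* replicate 1, 57 members were called in Δ*rsrA* and 39 in Δ*rsrB*. In the fit of Δ*rsrA*, leaving out Δ*rsrA* replicate 2 gave 32. Leaving out Δ*rsrB* replicates 1, 2 and 3 gave 11, 8 and 11 members in the fit of Δ*rsrB*.

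Replicates of the members were closest in Δ*rsrA*. Over the members, log2(FPKM + 1) had a median SD of 0.13 in Δ*rsrA* and 0.22 in Δ*rsrB*, against 0.34 in Δ*ku70*. Over all genes tested between the mutants, the median SD was 0.14 for Δ*rsrA* and 0.17 for Δ*rsrB*, against 0.29 for Δ*ku70*. The spread of Δ*ku70* was limited by the rule. In 6 members the 3 Δ*rsrA* values spanned at least 1 on the log2 scale, and in 5 members the 3 Δ*rsrB* values did. An example in each strain, picked after the values had been seen, is POX07792 with 10.4, 27.0 and 27.5 FPKM in Δ*rsrA* and POX04068 with 6.61, 9.43 and 23.3 in Δ*rsrB*. In both, 1 library of the mutant stood apart from the other 2.

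Within Δ*ku70*, replicate 1 had the lowest of the 3 values in 36 members (57.1%) and the highest in 11 (17.5%). Over all genes tested between the mutants, replicate 1 was lowest in 44.3% and highest in 36.4%. The rule used these Δ*ku70* values, and low ones helped a gene to meet it, so the members' shares cannot be read as their property. In the 244 genes that met the mirrored rule, lower in both mutants, replicate 1 was highest in 57.8% and lowest in 16.8%. As given above, 25 of the 63 members failed the rule without this library.

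Neighbouring identifiers were counted because the rule did not require them, although it left out 1 block of 12 consecutive identifiers, of which 1 met the other conditions. In 6 members (9.52%) the identifier number was next to that of another member, as POX02985 with POX02986, POX06323 with POX06324 and POX07893 with POX07894, whereas 1.20% of the other 9658 listed genes were next to a member. Within 2 numbers this applied to 10 members (15.9%), against 2.35% of the others. Neither the lists nor the paper say whether these numbers follow the order of genes on the chromosomes, so no distance can be given. For comparison, 20.1% of the 244 genes that met the mirrored rule, lower in both mutants, had a neighbour in their own set, against 4.48% of the other 9477 listed genes. The larger set has more numbers to meet.

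Genes of a pair did not always have the same profile. POX02986, beside POX02985, had 18.7, 18.3 and 15.8 FPKM in Δ*rsrA* and 14.0, 10.7 and 8.50 in Δ*rsrB*, against 4.44, 3.16 and 2.99 in Δ*ku70*. Its level was below that of POX02985 in each library, and it was higher in Δ*rsrA* than in Δ*rsrB* by 0.64 (standard error 0.18, adjusted p = 0.0163, limma), where POX02985 was not called. Over the alternatives its adjusted p was 0.00291 to 0.0568 (limma), and the call was lost without Δ*rsrA* replicate 2 (0.62) or Δ*rsrB* replicate 2 (0.64). Whether POX02985 was called depended on the scaling, since it was called in the same direction under both scalings named above. With these, POX02986 differed by 0.98 (median of ratios) and 1.04 (quantile normalization). The difference between POX02985 and POX02986 was not tested. POX06324 had 28.2, 25.4 and 26.5 FPKM in Δ*rsrA* and 10.3, 7.72 and 7.88 in Δ*rsrB*, against 1.69, 3.55 and 4.14 in Δ*ku70*. Its neighbour POX06323 had 10.6, 12.1 and 7.77 in Δ*rsrA* and 9.04, 8.24 and 9.11 in Δ*rsrB*, against 2.69, 5.11 and 5.11 in Δ*ku70*. The mutants differed by 1.53 (standard error 0.13, adjusted p = 8.3e-05, limma) in POX06324 and by 0.17 (95% interval -0.21 to 0.55, adjusted p = 0.391, limma) in POX06323. POX06323 was also called higher in Δ*rsrA* with the median of ratios, at 0.50 (adjusted p = 0.0372, limma), and with quantile normalization, at 0.59 (adjusted p = 0.0192, limma). The difference between the 2 genes was not tested. Without Δ*ku70* replicate 1, POX06323 rose by 0.85 in Δ*rsrA* and 0.68 in Δ*rsrB* and failed the rule.

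POX07893, the neighbour of POX07894, was at the low end of the scale, with 3.17, 4.96 and 3.57 FPKM in Δ*rsrA* and 1.35, 0.46 and 2.72 in Δ*rsrB*, against 0, 0 and 0.45 in Δ*ku70*. One Δ*rsrB* value was nearly that of the highest Δ*ku70* library. As in POX07894, Δ*rsrA* was above Δ*rsrB*, by 1.05 (standard error 0.33, adjusted p = 0.0283, limma), and the adjusted p over the alternatives was 0.00452 to 0.0923. The call was lost without Δ*rsrA* replicate 2 or 3 and without Δ*rsrB* replicate 1 or 2, at 0.71 to 1.09.

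With 1 identifier between them, POX05565 and POX05567 had near-parallel values. POX05565 had 148, 174 and 219 FPKM in Δ*rsrA* and 168, 129 and 151 in Δ*rsrB*, against 110, 65.1 and 70.9 in Δ*ku70*. POX05567 had 140, 168 and 203 in Δ*rsrA* and 141, 106 and 134 in Δ*rsrB*, against 92.1, 56.6 and 51.8 in Δ*ku70*. In both genes the libraries had the same order within Δ*rsrA* and within Δ*rsrB*, and replicate 1 was the highest of the Δ*ku70* libraries. The gene listed between them, POX05566, stayed at or under 1.79 FPKM in all 9 libraries. Likewise, POX08716 had 24.0, 29.2 and 49.0 FPKM in Δ*rsrA* and 26.5, 24.1 and 42.9 in Δ*rsrB*, against 12.4, 15.4 and 16.1 in Δ*ku70*, and POX08718 had 31.3, 34.8 and 53.9 in Δ*rsrA* and 36.1, 28.8 and 48.8 in Δ*rsrB*, against 16.8, 20.6 and 22.4 in Δ*ku70*. Replicate 3 was highest in each of the 3 strains in both genes. POX08717, listed between them, did not exceed 1.73 FPKM. Without Δ*ku70* replicate 1, POX08718 rose by 0.83 in Δ*rsrA* and 0.76 in Δ*rsrB*. Without sequences, reads shared by near-identical copies cannot be told apart from transcripts of both genes.

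Of the 63, 4 were listed at 0 in at least 1 Δ*ku70* library. None could be listed at 0 in a mutant library, since the rule placed each mutant value above all Δ*ku70* values. In POX03920, with 1.76, 3.49 and 0.58 FPKM in Δ*rsrA* and 0.58, 1.17 and 2.34 in Δ*rsrB*, against 0.57, 0 and 0 in Δ*ku70*, each value above 0 was between 1.0 and 6.1 times the lowest one. Its highest Δ*ku70* value and its lowest value in each mutant were all 1.0 times the lowest, and the gap was 0.01 on the log2 scale. With a pseudocount of 5, 42 genes met the rule, 37 of the 63 members among them.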

How the data were processed

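Poly(A) RNA of mycelia was sequenced at BGI by the authors, who deposited 1 list of FPKM values per library, rounded to hundredths, separately for each replicate. In the paper, BWA, Bowtie2, RSEM and NOISeq are named, and the submitters' processing notes name bcl2fastq and HISAT2, without the step of each. Filters, strandedness and settings are not given in the sources used here. FPKM values are not counts, the depth behind them is unknown, and no count test or detection limit was used.

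Strains and replicate numbers came from the sample labels. The members, gene sets and tests were chosen with earlier results of these data known. Values were transformed to log2(FPKM + 1), without further scaling, and understate the change of weakly expressed genes. Linear models were fitted per gene in limma 3.58.1 (R 4.3.3, eBayes with a trend) to the 6 libraries of each comparison, keeping genes whose FPKM averaged 1 or more, with Benjamini-Hochberg adjustment over all of them. The script was tested on simulated data. NOISeq was not used here.

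The genes named are, by rule, the 2 members with the largest mean rise, the 2 with the highest FPKM in the mutants, the 2 with the largest difference between the mutants in each direction, and neighbouring identifiers. Others were named after their values had been seen. Identical values were found in at most 0.469% of genes over 1 FPKM in any pair of libraries, so no library repeated another. The numbers 1 to 3 are shared by the strains, and what they stand for is not stated. After subtracting each strain's mean, same-numbered libraries of the mutants had r = 0.583, 0.107 and 0.468 across genes, all over the limit of 0.1. By that limit these 2 strains would count as paired, but 0.107 is barely over it and no label states a pairing. The main fit took the libraries as unpaired, with a replicate block as an alternative. With Δ*ku70*, r was not over the limit for all numbers and lay between -0.180 and 0.277.

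Alternatives were other pseudocounts (0.1 and 5), other filters on FPKM, rescaling to equal totals, median-of-ratios and quantile scaling, other limits of the rule, a replicate block, a joint fit of the 3 strains, and each library left out in turn. A list of conidiation genes could not be used, because no source used here pairs its names with the identifiers of the lists.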

Additional observations from a re-analysis of the deposited data

Results flagged for a closer look

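Between the 2 deletion strains, the rise over Δ*ku70* differed by a test of the difference itself (limma, adjusted p under 0.05, Benjamini-Hochberg) in 19 members that were higher and 10 that were lower in Δ*rsrA*. The named members among them were POX07894 (2.15 on the log2 scale), POX05259 (1.80), POX06324 (1.53), POX06951 (1.31), POX07893 (1.05) and POX02986 (0.64), all higher in Δ*rsrA*, and POX01651 (-3.85), POX08753 (-2.35) and POX07927 (-1.72), all lower. The calls of POX07893 and POX02986 were lost in 4 and 2 alternatives. Over all genes tested, 15.2% were higher and 45.1% lower in Δ*rsrA*, against 30.2% and 15.9% of the members. As above, these shares cannot be read as a property of the members. With 3 libraries per strain, single libraries were not tested for lying apart from the others of their group.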

How the results depend on the processing

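The number of members (63) moved to 129 with scaling by the median of ratios and 119 with quantile normalization. Rescaling to equal totals gave 49, with 45 of the 63 among them, and 42 of the 63 met the rule under all 3 scalings. The number moved to 132 with a threshold of 0.6 and 24 with a threshold of 1. It lay between 60 and 187 with each library left out in turn. The genes lowered in both mutants (244) moved to 393 and 154 with these thresholds and were 242 to 401 with a library left out. The members higher in Δ*rsrA* than in Δ*rsrB* (19) moved to 33 with the median of ratios, and under all other alternatives both counts stayed within 1.5 times. With the replicate block they were 20 and 11, and the block moved no count of members by over 1.5 times (49 in Δ*rsrA* and 12 in Δ*rsrB* against Δ*ku70*). Of these calls, 11 of the 19 and 7 of the 10 were made under every alternative. Members called in Δ*rsrB* against Δ*ku70* (18) were 49 with 1 fit over all 9 libraries and 8 to 39 with a library left out, and those in Δ*rsrA* (54) were 32 to 57. Without the 5 most abundant members, the share of the FPKM total was 0.796% in Δ*rsrA* and 0.849% in Δ*rsrB*, against 0.357% in Δ*ku70*. The higher share in the mutants was again set by the choice. Members near another by identifier (6) were 10 with numbers up to 2 apart, an alternative chosen after seeing the data. The difference between the mutants turned to 0.09 and 0.15 in POX05483 with the median of ratios and quantile normalization, and lay between -0.06 and 0.08 in POX03232 with a library left out. For each of these, the cause was not tested. The depth of the libraries is unknown, which limits what can be said of members under about 1 FPKM.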
